A study of Homo sapiens with 52 samples.

Results

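Contact of human chromosome 9 with the nuclear lamina was followed in single KBM7 cells, over the long stretch of the chromosome that the deposited values place on a sequence joined to chromosome 22. The 100 kb bins of that joined sequence were taken up to position 133600000, the last before the junction, if they hold a value in every cell. Positions there run as on chromosome 9 of the genome build hg19, and the choice used positions only. Of 1336 bins listed, 264 held no value. The other 1072 were studied, out of 26584 bins with values in the series.

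The labels describe 52 single cells of clone 14 of KBM7, an established human chronic myeloid leukaemia line, with a ploidy of 2N. All cells carried the bacterial methyltransferase Dam fused to LaminB1, which marks DNA near the lamina, and 0.5 nM Shield1 was given for 15 h to induce it. Single cells were sorted from the smallest 2% that carried both Fucci cell cycle markers, and their DNA went through 21 PCR extension steps. The 51 cells with values form 1 group from 1 clone, with no control group among the labels. The labels name no separate cultures. The cells are therefore treated as 1 sample, SDs describe the spread over these cells only, and no p-value is given.

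The nuclear lamina is a protein mesh under the inner nuclear membrane, and Lamin B1 is one of its main components. Long stretches of chromatin, usually poor in genes and late in replication, touch it and are called lamina-associated domains, while regions rich in active genes mostly lie inside the nucleus. KBM7 carries the Philadelphia translocation, which joins the long arm of chromosome 9 at ABL1 to chromosome 22 at BCR. Chromosome 9 also has a large block of constitutive heterochromatin on its long arm beside the centromere. No gene is placed on a bin here, because an hg19 annotation was not used.

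Each value divides the observed signal of a bin by its expected signal (OE), and an OE of 1 or more was read as contact of that bin in that cell. Whole reads could be recovered from the ratios. They numbered 50978 to 316463 per cell over the series, with a median of 142540, and 1292 to 12291 on chromosome 9, with a median of 6654. The median bin of chromosome 9 needed 2.15 reads for an OE of 1 in the shallowest cell, cell 9, and 13.4 in the deepest, cell 26. The values do not tell the copies of chromosome 9 in a cell apart. Cell 9 stood apart from the others on the long arm, as described further on, and results that rest on it are given with and without it. No 2 cells had identical values. The most alike pair of cells had a correlation of 0.839 between their OE values on chromosome 9, and contact calls of pairs of cells correlated with a mean phi of 0.621 over 1275 pairs.

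Chromosome 9 as a whole was contacted slightly more than the rest of the genome. The contacted share of its bins was 34.7% ± 6.10 (mean ± SD, n = 51 cells), with a lowest value of 15.8%, a median of 35.4% and a highest of 46.3%. The highest cells were cell 12 at 46.3% (95% Wilson interval 43.3 to 49.3), cell 17 at 44.1% (41.2 to 47.1) and cell 7 at 43.6% (40.6 to 46.5). The lowest were cell 9 at 15.8% (13.7 to 18.1), cell 14 at 21.7% (19.4 to 24.3) and cell 10 at 23.8% (21.3 to 26.4). These intervals cover counting error over bins only, and neighbouring bins are not independent. The intervals of the 3 highest cells lie above those of the 3 lowest cells. These cells were picked by the same share, so that separation tests nothing.

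All other bins of the same cells were contacted at 31.4% ± 3.57, so chromosome 9 lay 3.33 ± 5.29 percentage points higher. It was higher than the rest of its own cell in 37 cells and lower in 14, and the mean difference was smaller than its SD over cells. The difference ran from -12.3 points in cell 9 to 11.2 points in cell 29, with a median of 4.32 points. Cells 37 and 12 followed cell 29 at 10.7 and 10.3 points, and cells 10 and 26 followed cell 9 at -6.34 and -6.10 points. Cell 26 had the highest share outside chromosome 9, 40.1%, and 34.0% on it. Without cell 9 the mean difference was 3.64 points.

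Chromosome 9 ranked 8 of 23 chromosomes and joined parts by mean share. Chromosome 8 is not among them and gave no bins to the series total. Chromosome 9 enters without its end past the junction. Against the 3 chromosomes nearest to it in number of bins, it was higher than chromosome 13 (33.3%) in 27 cells and lower in 24, with a difference of 1.41 ± 10.2 points. It was higher than chromosome 14 (30.7%) in 40 cells, by 3.94 ± 5.86 points, and higher than chromosome 10 (29.1%) in 42 cells, by 5.62 ± 6.81 points. All 3 differences were smaller than their SDs over cells. Its share correlated over the 51 cells with reads per cell (r = 0.41, Spearman's rho = 0.45, and r = 0.50 without the 2 cells farthest from the median number of reads). For its difference from the rest of the cell, r with reads was -0.0048 and rho 0.061, and r was 0.20 without those 2 cells. Both sides of that difference share the depth of the cell.

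The arms of chromosome 9 differed much more than the studied part did from the other bins of the series. The arms were split at the longest inner stretch without values, from 47300001 to 65600000 (18.3 Mb), which spans the centromere region. The long arm is studied only up to the junction. The 423 bins of the short arm were contacted at 45.5% ± 5.86 (n = 51), from 31.9% in cell 34 over a median of 46.8% to 56.3% in cell 26. The 649 bins of the long arm were contacted at 27.6% ± 7.86, from 0.462% in cell 9 over a median of 29.4% to 41.1% in cell 12. The short arm was higher in 51 of 51 cells, by 17.8 ± 7.58 points, with a median of 16.6 points. Cell 34 had the smallest difference, 1.25 points, and cell 9 the largest, 38.8 points. Without cell 9 the difference was 17.4 points. Such a contrast is not particular to chromosome 9. Other chromosomes were split in the same way, and their sides differed to varied extents. The sides before and after the split stood at 53.1% and 31.2% on chromosome 5. They stood at 22.1% and 43.5% on chromosome 6, and at 42.2% and 44.1% on chromosome 4.

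**Figure D1:**
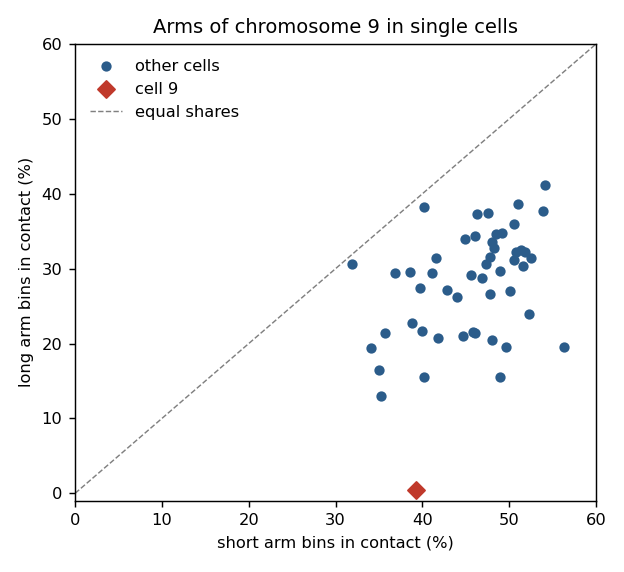
Share of contacted bins on the short arm (horizontal axis, %) and on the long arm (vertical axis, %) of chromosome 9, 1 point per cell, with cell 9 as a diamond and equal shares as a dashed line. All 51 points lie below the line, and cell 9 stands alone at 39.2% of the short arm and 0.462% of the long arm.

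The share of the short arm over cells followed that of the long arm with r = 0.42 (rho = 0.43, n = 51). The relation was weaker once the share of all other bins was subtracted from each (r = 0.28, rho = 0.32, and r = 0.36 without the 2 cells farthest from the median on the short arm). Both arms of a cell share its reads and its OE scale.

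Bins of chromosome 9 ranged from never contacted to contacted in every cell. Of the 1072 bins, 377 (35.2%) were contacted in no cell, beside 38.7% of all bins of the series. A count of 0 in 51 cells allows a frequency of up to 5.88%. Among these 377 bins, 89 had no recovered read at all. Over the bins with a read, 29.3% were contacted in no cell. Another 80 bins (7.46%, beside 7.93%) had contact in at least 1 cell and in no more than 5% of cells, which made 457 bins (42.6%) at or below 5%, beside 46.7% in the series.

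Frequent contact, in at least 80% of cells, was found for 240 bins (22.4%), beside 20.9% of all bins. At least 90% of cells contacted 140 bins (13.1%, beside 12.8%), and all 51 cells contacted 4 bins (0.373%, beside 0.824%). Intermediate bins, contacted in over 20% and under 80% of cells, numbered 274 (25.6%, beside 22.1%), and 101 bins (9.42%, beside 10.4%) lay over 5% and up to 20%. Exactly 1 cell contacted 56 bins (5.22%, beside 5.06%). The shares of chromosome 9 lie within 5 percentage points of those of the whole series in all of these classes, and its share of bins contacted in every cell, 4 bins, is below that of the series.

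The classes were spread unevenly over the arms. The short arm held 154 of the 240 bins contacted in at least 80% of cells, which is 36.4% of its bins, and the long arm held 86, which is 13.3%. All 4 bins contacted in every cell were on the short arm. Bins contacted in no cell made up 24.3% of the short arm and 42.2% of the long arm, and intermediate bins 21.3% and 28.4%. Contacted values were higher in bins contacted more often, an order to be expected because the classes rest on the same OE values. The median OE of contacted values was 2.73 in the 240 frequently contacted bins, 1.96 in intermediate bins and 1.33 in bins contacted in at least 1 cell and at most 5%.

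**Figure D2:**
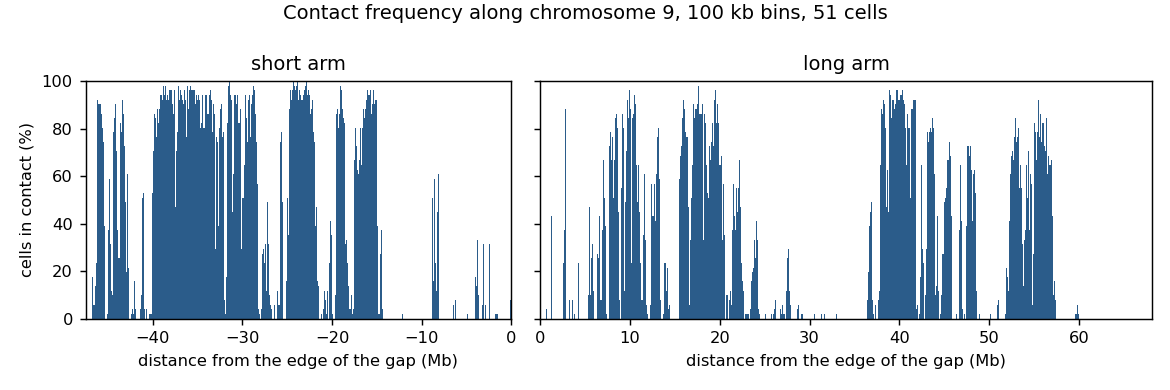
Share of the 51 cells in contact (vertical axis, %) for each 100 kb bin of chromosome 9, against distance from the edge of the central gap (Mb), for the short arm on the left and the long arm on the right. Tall blocks fill most of the outer short arm, and the long arm shows separate blocks with wide stretches near 0, the last of which reaches the junction with chromosome 22.

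Along the chromosome, contact was highest from 10 to 20 Mb, on the short arm. In windows of 10 Mb, the share was 45.7% ± 8.73 from 0 to 10 Mb, 74.1% ± 11.2 from 10 to 20 Mb, 46.6% ± 8.09 from 20 to 30 Mb and 25.8% ± 4.96 from 30 to 40 Mb. The window from 10 to 20 Mb was above the cell's own share on chromosome 9 in 51 of 51 cells, from 45.0% in cell 14 to 90% in cell 26. Its 100 bins included 64 contacted in at least 80% of cells and only 2 contacted in none.

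On the long arm the windows alternated. The share was 40.1% ± 14.1 from 70 to 80 Mb, 45.5% ± 16.1 from 80 to 90 Mb, 1.53% ± 2.94 from 90 to 100 Mb and 46.4% ± 11.0 from 100 to 110 Mb. It was 28.2% ± 13.3 from 110 to 120 Mb and 18.2% ± 7.82 from 120 to 130 Mb. From 130 to 133.6 Mb it was 0 in all 51 cells, over 36 bins of which 16 held no read in any cell. The window from 90 to 100 Mb held no contacted bin in 24 cells, while both windows beside it were contacted at over 45% on average. The spread over cells was wider in the long-arm windows from 70 to 90 Mb than in any short-arm window from 0 to 40 Mb.

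**Figure D3:**
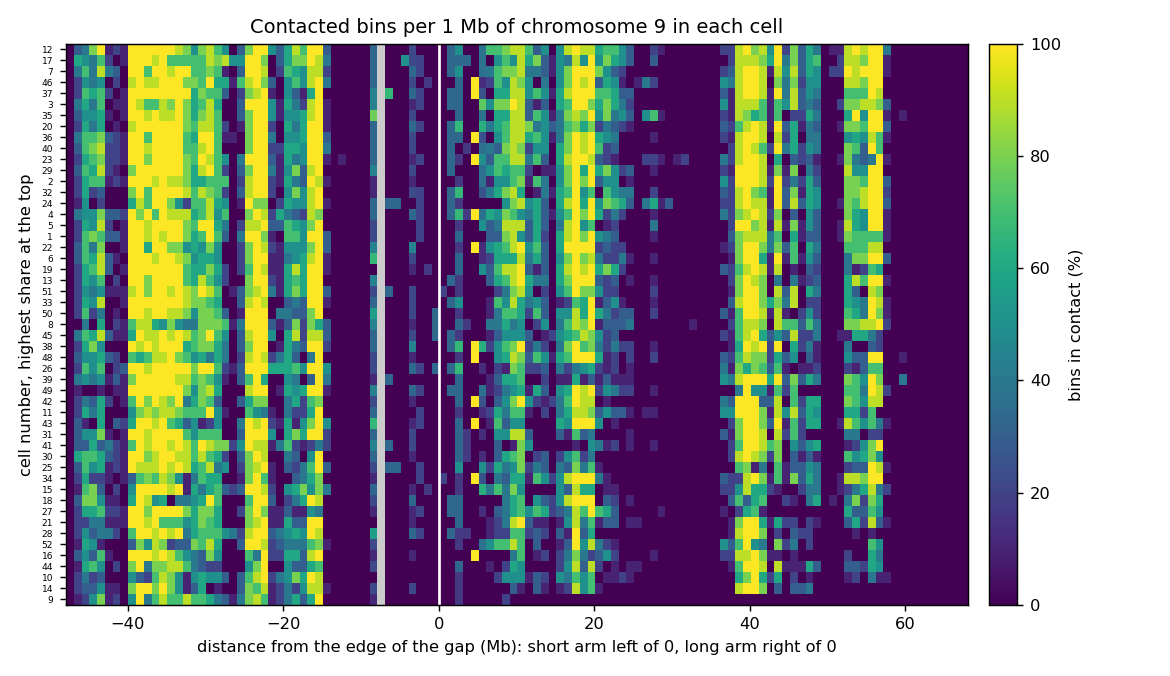
Contacted share (colour, %) of the bins in each 1 Mb of chromosome 9 (horizontal axis, distance from the edge of the central gap in Mb, with the short arm left of 0) in each cell (vertical axis, highest share at the top), where grey marks stretches without values. Blocks recur at the same places in nearly every row, and cell 9 in the bottom row keeps the short-arm blocks with almost none on the long arm.

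The longest runs of neighbouring bins that were each contacted in at least 80% of cells lay mostly on the short arm, which held 4 of the 5 longest among 45 such runs. The longest ran from 11100001 to 13900000 (2.8 Mb, 28 bins). Cells contacted 91.7% ± 13.1 of its bins, with a lowest value of 32.1% in cell 18, a median of 96.4% and a highest of 100% (n = 51). All of its bins were contacted together in 19 cells. The next ran from 22500001 to 25200000 (2.7 Mb, 27 bins) and was contacted at 94.6% ± 8.09, from 59.3% in cell 11 to 100%, with 23 cells at 100%. No cell was below 50% there.

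The others were shorter. From 7800001 to 9800000 (2.0 Mb) the share was 93.1% ± 12.2, with a lowest value of 30.0% in cell 10 and 27 cells at 100%. From 30600001 to 32300000 (1.7 Mb) it was 90.9% ± 13.8, with a lowest value of 29.4% in cell 41. The long-arm run from 104400001 to 106300000 (1.9 Mb, 19 bins) was contacted at 91.3% ± 17.4, with 26 cells at 100% and cell 9 at 0. Without cell 9 it stood at 93.2% ± 11.6. In 47 of the 51 cells none of these 5 runs was below 50%, 3 cells had 1 run below 50% and cell 18 had 2. The runs were picked for frequent contact in these same cells. High shares per cell and the counts of cells at 100% therefore follow largely from that choice.

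Among 93 runs of bins contacted in over 20% and under 80% of cells, the 5 longest were 0.8 to 1.2 Mb long and all lay on the long arm. From 86900001 to 88100000 (1.2 Mb, 12 bins) the share was 45.4% ± 32.5 with a median of 41.7%, and 6 cells contacted no bin while 4 contacted all. From 110300001 to 111500000 (1.2 Mb) it was 50.7% ± 31.9, with 5 cells at 0 and 3 at 100%.

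The run from 113000001 to 114100000 (1.1 Mb) was contacted at 61.1% ± 32.5, with 5 cells at 0 and 6 at 100%. The run from 119500001 to 120400000 (0.9 Mb) stood at 50.5% ± 33.8, with 9 cells at 0 and 6 at 100%. The run from 77900001 to 78700000 (0.8 Mb) stood at 52.2% ± 37.1, with 8 cells at 0 and 11 at 100%. In each of these 5 runs the values covered the whole range from 0 to 100%. A wide spread over cells follows from the choice of bins contacted in some cells and not in others, so no comparison with the often contacted runs is drawn. Counting error adds to this spread, since these runs have 8 to 12 bins and a median of 70 to 107 reads per cell. A threshold of OE 0.5 or 2 moved their means to between 65.4% and 78.4%, or between 15.4% and 30.6%.

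**Figure D4:**
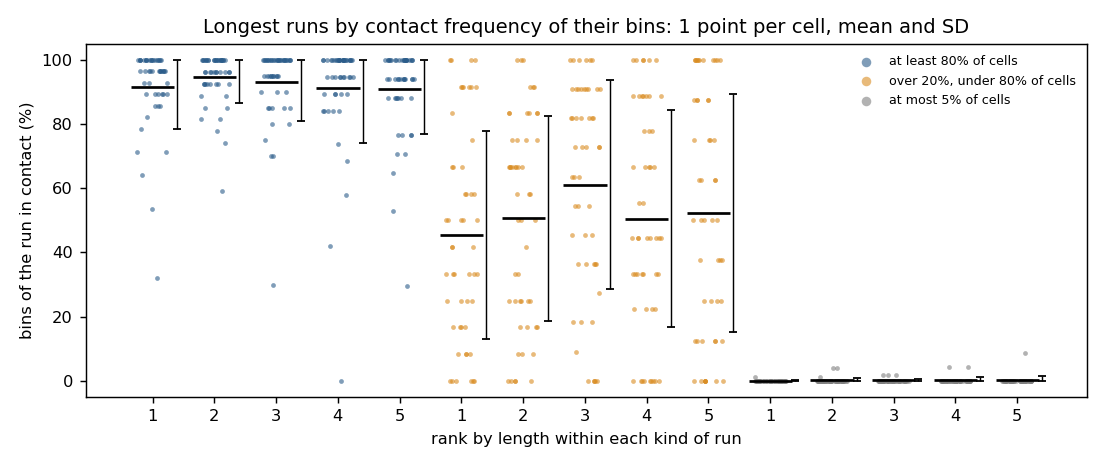
Share of contacted bins (vertical axis, %) in each cell for the 5 longest runs of each kind, ordered by length from 1 to 5 within a kind (horizontal axis). Each point is 1 of 51 cells, horizontal lines are means, and vertical bars are SDs drawn only within 0 to 100%; points of the often contacted runs gather near 100%, those of the rarely contacted runs near 0, and those of the intermediate runs fill the range.

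Of the 68 runs of rarely contacted bins, each with contact in no more than 5% of cells, the longest reached the junction. It ran from 125500001 to 133600000 (8.1 Mb, 81 bins) and was contacted at 0.0242% ± 0.173, which is 1 contacted bin, in cell 39, over all cells. In the run from 94400001 to 102000000 (7.6 Mb) the share was 0.181% ± 0.790, with a highest value of 3.95% in cell 23 and 48 cells at 0. From 32900001 to 38400000 (5.5 Mb), on the short arm, it was 0.107% ± 0.432, also with 48 cells at 0. The runs from 114200001 to 116500000 and from 123100001 to 125400000 (2.3 Mb each) both stood at 0.171%, with 49 and 50 cells at 0. These runs hold 2 to 27 bins without a read in any cell, for which no expected number could be recovered. The median expected number of their other bins was 303 to 338.5, near the 320 of all chromosome 9 bins with a read.

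Contact changed sharply at some positions. Means over the 5 bins on each side of a position differed by over 50 percentage points at 6.59% of 1001 positions on chromosome 9, beside 7.20% of positions in the series. At 107500001 the contact frequency fell by 83.5 points, from 89.4% to 5.88%. The bin before that position was contacted in 42 cells and the bin after it in 2. A single cell showed the full step, all 5 bins contacted before and none after, in 28 of 51 cases, and 50 cells changed in the same direction.

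The other steps were of like size. At 19000001 the frequency fell by 80.4 points, from 82.4% to 1.96%, and 21 cells showed the full step. At 1100001, near the end of the short arm, it rose by 80.0 points, from 9.80% to 89.8%, with the same direction in 51 of 51 cells and a full step in 23. At 103400001 it rose by 75.7 points, from 5.10% to 80.8%, and at 27800001 by 74.5 points, from 13.3% to 87.8%. At each of these 4 the direction was the same in at least 50 cells, and no cell went the opposite way. The 5 positions were picked for the size of their steps in these same cells. Agreement between cells and the counts of full steps therefore follow largely from that choice and are no separate support. The median expected numbers on both sides of the 5 positions were between 265 and 374.

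A few narrow features stood out and were chosen after their values were seen. The bins from 6100001 to 6300000 (0.2 Mb) were contacted in 52.0% of cases, between 3 bins before them at 4.58% and 3 after them at 1.31%. In 34 cells they were higher than those neighbours and in none lower, and 17 cells contacted neither of the 2 bins. Within the often contacted region, the 4 bins from 15200001 to 15600000 were contacted at 17.2%, between neighbours at 81.7% and 93.5%. The bins were lower than those neighbours in 50 cells and in 1 cell equal. The single bins that start at 75700001 (23.5%, between 89.5% and 88.2%), 83700001 (33.3%, between 87.6% and 82.4%) and 9800001 (47.1%, between 90.8% and 82.4%) were further dips. These 3 bins were lower than their neighbours in 38, 32 and 27 cells and higher in 2, 4 and 6. All of these features were picked by their frequencies in these same cells. Agreement between cells therefore follows largely from that choice. The median expected numbers of the dips, 265.5 to 389, were near those of other bins. By the same definition the series held 12 islands and 50 dips.

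In single cells the contacted bins of chromosome 9 formed 3708 runs with a mean length of 0.511 Mb, beside 0.531 Mb on the other chromosomes. Runs of 1 bin made up 35.8% of them, beside 36.1%. Runs of at least 1 Mb made up 14.8% and held 54.3% of the contacted bins, beside 16.3% and 57.1%. A cell had 72.7 ± 9.63 runs on chromosome 9, and its mean run length was 0.519 Mb ± 0.112 (n = 51), from 0.287 Mb in cell 10 to 0.752 Mb in cell 12. The mean run length changed with the threshold, to 0.677 Mb at an OE of 0.5 and 0.309 Mb at an OE of 2.

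The longest run in a cell measured 4.02 Mb ± 1.48, with a lowest value of 1.3 Mb in cell 9, a median of 3.5 Mb and a highest of 8.1 Mb in cell 37. That longest run covered 7200001 to 15300000. Cells 19, 33 and 49 each had a run of 7.1 Mb from 7200001 to 14300000, with the same first and last bin. All of the 10 longest runs over cells lay between 7200001 and 15400000 on the short arm.

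Bins varied together over cells when they were near each other. For the 274 intermediate bins, 90 on the short arm and 184 on the long arm, the share of the cell was subtracted and contact was correlated over the 51 cells. The mean correlation was 0.44 for neighbours at 0.1 Mb and 0.34 at 0.5 Mb. It was 0.24 at 1 Mb and 0.25 at 2 Mb, and then 0.14 at 5 Mb and 0.061 at 10 Mb. At these distances the same measure within the other chromosomes gave 0.44, 0.33, 0.28, 0.20, 0.13 and 0.092. Chromosome 9 was lower than the others at 1 Mb and higher at 2 Mb, from 86 and 89 pairs, and that difference has no test. At 50 Mb it was 0.075 on chromosome 9, from 20 pairs, and 0.053 elsewhere. Between the arms it was 0.032, and between chromosome 9 and other chromosomes 0.0096. Pairs of bins share cells and often share a run, so these means describe the 51 cells only.

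Without cell 9, and with the intermediate bins chosen anew over the other 50 cells, the mean was 0.23 at 1 Mb, 0.049 at 10 Mb, 0.068 at 50 Mb and 0.031 between the arms. With all cells thinned to the reads of cell 9 the value at 1 Mb was 0.19.

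**Figure D5:**
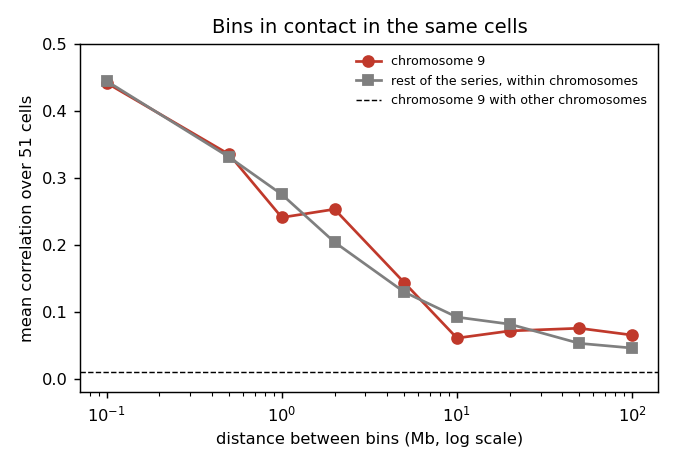
Mean correlation over 51 cells of contact between intermediate bins (vertical axis) against the distance between them (horizontal axis, Mb, log scale), for chromosome 9 (circles) and within the other chromosomes (squares). The dashed line is the mean between chromosome 9 and other chromosomes, 0.0096, and both curves fall from 0.44 at 0.1 Mb to under 0.1 at 10 Mb.

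The contacts can also be gathered into 11 stretches of at least 1 Mb in which the frequency averaged over 11 bins was at least 50%, a choice made after the values were seen. They covered 34.3 Mb, 343 of the 1072 bins, and held 73.1% of all contacted values of chromosome 9. The longest ran from 7400001 to 18900000 (11.5 Mb) on the short arm and was contacted at 82.8% ± 11.1, with a lowest value of 52.2% in cell 10, a median of 87.0% and a highest of 97.4% in cell 26. On the long arm the longest were from 81200001 to 85900000 (4.7 Mb, 73.7% ± 22.5) and from 103500001 to 107500000 (4.0 Mb, 84.6% ± 17.7).

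A stretch fell below 10% in a cell in 15 cases, spread over 7 cells, and 14 of them were on the long arm. Cell 9 accounted for 5 of them. Cell 14 had no contacted bin from 73400001 to 74500000, from 118000001 to 119300000 or from 120200001 to 122500000, where the means over cells were 61.3%, 68.6% and 68.7%. It held 6, 9 and 9 reads there, against medians of 115, 163 and 297, and it had 77404 reads in all. Cells 16 and 28 had 2 such stretches each, and the only case on the short arm was the stretch from 3200001 to 4300000 in cell 49, at 9.09%. Over the 51 cells the shares of 2 stretches correlated with a mean r of 0.48 for the 15 pairs within the long arm (0.36 without cell 9), with a range of 0.28 to 0.74. Without cell 9 the range within the long arm was 0.053 to 0.71. The mean was 0.28 for the 10 pairs within the short arm (range 0.057 to 0.53) and 0.23 for the 30 pairs across the arms (range -0.068 to 0.43). With the share of all other bins subtracted in each cell, these means were 0.45 (0.34 without cell 9), 0.19 and 0.17. All pairs share the same cells and depths, and the ranges overlap.

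Cell 9 had almost no signal on the long arm. It contacted 3 of the 649 long-arm bins, where the other 50 cells contacted 84 to 267 (183 ± 44.8). It held 62 reads there and 1230 on the short arm. The long arm took 0.122% of its reads, against 1.06% to 3.64% in the other cells. The short arm took 2.41%, near the 2.32% ± 0.436 of the other cells. So its long arm lay outside the range of the other 50 cells and its short arm inside it.

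The same split was seen in bins chosen from the other 50 cells. Of 94 long-arm bins contacted in at least 80% of the others, cell 9 contacted 1.06%, and the others 88.7% ± 10.1. Of 157 such bins on the short arm it contacted 78.3%, and the others 91.4% ± 8.20. In often contacted bins cell 9 had 9.28 reads per 10000 expected on the long arm, 192 on the short arm and 198 on the other chromosomes. In the other cells these were 512, 553 and 553. The values of the other cells are high by the choice of bins, in which cell 9 took no part.

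Rarely contacted bins give a weaker comparison, because few reads fall there in shallow cells. In the 254 long-arm bins that held a read in some cell and had contact in no more than 5% of the other cells, cell 9 had 0 reads, where its own rate in such bins of other chromosomes would give 15.4. The other cells had 4 to 282 reads there, with a median of 31.5, and their own rates elsewhere would give a median of 63.2, so the rate elsewhere is too high for these bins in them as well. On the chromosome 22 part of the joined sequence cell 9 had 1 read, and the other cells had 2 to 487 with a median of 46. The 3 contacted long-arm bins start at 68400001, 73600001 and 74200001 and held 1, 3 and 4 reads. Past 75 Mb it had 47 reads in 43 bins and no contacted bin, where the share of the other cells would give 1022 reads.

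With the other cells thinned to the 50978 reads of cell 9, their long arm was contacted at 12.6% to 38.8%, with a median of 27.7%. What sets cell 9 apart was not tested. Other chromosomes, also split at their longest inner stretch without values, had such cells too. Among the 30 parts with a mean share of at least 20%, there were 12 cases of a cell below 10% of the mean of its part. The long arm of chromosome 9 had 1 of them. The split was not checked against centromeres, so a part need not be an arm. The parts of chromosome 15, with 394 and 126 bins, had 2 cases each. The short arm of chromosome 9 had none, and its lowest cell stood at 70.2% of its mean.

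The measured end of the short arm was somewhat above the rest of the chromosome. Its outer 5 Mb (50 bins) were contacted at 39.7% ± 12.0, with a median of 42.0%, and the other bins at 34.4% ± 6.20. The difference was 5.25 ± 11.7 points, positive in 36 cells and negative in 15, which is smaller than its SD over cells. Cell 49, among the deepest, was lowest with 4.00% and 173 reads in these bins, and cells 36, 40 and 45 were highest with 58.0%. The difference depended on the setting. It was 0.0931 points at an OE of 2 or more, with 23 cells positive, 9.61 points at an OE of 0.5 or more, with 42 positive, and 12.2 ± 8.60 points for the outer 10 Mb, with 46 positive.

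At the other end, next to chromosome 22, contact was not detected. None of the 50 bins in the last 5 Mb before the junction was contacted in any of the 51 cells. The rest of chromosome 9 was contacted at 36.4% ± 6.40. Of these 50 bins, 19 were without any read, and the others held 77 reads over all cells, with a mean OE of 0.00474. The first 5 Mb after the junction, on chromosome 22, held 118 reads in 50 bins and was contacted at 0.0784% ± 0.392, with 49 cells at 0. Counts this low showed no step at the junction. Over the bins with a read, the median expected numbers were 310 before the junction and 358.5 after it.

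The bins beside the central gap gave few reads and their contact cannot be measured well. The 46 bins within 5 Mb of the gap were contacted at 10.3% ± 5.36 and the other bins at 35.8% ± 6.27, a difference of -25.5 ± 6.24 points with the same sign in 51 of 51 cells. No read in any cell fell in 22 of the 46 bins, and the highest expected number among them was 40. Of 241 contacts in these flanks 71.8% rested on 1 read, against 0.379% of 18721 contacts elsewhere on the chromosome. The share was 8.16% ± 5.24 on the short-arm side and 12.8% ± 6.70 on the long-arm side. The difference was -18.6 points over bins that held a read, and -12.7 points when the flanks were 10 Mb wide.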

How the data were processed

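The authors deposited 1 ratio (OE, observed signal over expected signal) for each 100 kb bin and cell, and it was used as deposited. Per the submitters' processing notes, the tools were Cutadapt and Bowtie2 2.1.0, and the build was hg19. The sources used here do not give the origin of the expected signal or the treatment of duplicate reads.

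A bin without values in the cells was left out. Dividing a ratio by a cell's own factor and multiplying it by a whole number for the bin, called its expected number, gave whole reads. All ratios above 0 (100%) came out whole within 0.02 reads. Reads never exceeded the expected number of a bin, so the recovered reads may be distinct sites. Tested on simulated data over 24599 bins, this recovered 99.999% of values. That share counts values above 0, so bins with few reads weigh little in it. For each bin the smallest whole number that made its reads whole was taken. In bins with few reads, such as those near the junction and the gap, reads and expected numbers may therefore be too low. PCR reads carry no molecular identifiers, so intervals and limits cover counting error only.

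Shares, contact frequencies, runs and correlations were computed with Python 3.11.15, NumPy 2.4.6, pandas 2.3.3 and SciPy 1.17.1, and drawn with matplotlib 3.10.9. Comparisons were made within cells and have no test. Named were the 5 longest runs of each of 3 kinds of bin (contact in at least 80%, in over 20% and under 80%, or in at most 5% of cells), the 5 largest steps at least 2 Mb apart, all 10 Mb windows, the 3 highest and 3 lowest cells, and the 3 cells that differed most from their own genome in each direction. The members, regions and rules were chosen with earlier results of these data known. Gene lists were not used, because an hg19 annotation was not used here, and cell 47, which has labels but no values, was not analysed here. Alternatives were other OE thresholds, the top 30% of bins per cell, only bins with a read, bins with an expected number of at least 100, odd-numbered or even-numbered cells, thinned reads, 500 kb bins and other widths.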

Additional observations from a re-analysis of the deposited data

How the results depend on the processing

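Of 103 alternatives over 10 results, 87 stayed within a set limit, 16 moved further and 0 changed direction. The limit was 1 SD over cells, 1.5 times for counts, and the difference between odd-numbered and even-numbered cells for the correlation. Shares, counts and run lengths cannot change direction. A limit of 1 SD is wide: the end of the short arm stayed within it at 0.0931 points against 5.25. With contact called from an OE of 0.5, the share of chromosome 9 was 42.4%, the flank difference -33.4 points, the junction difference -44.4 points, the mean run 0.677 Mb and the correlation at 1 Mb 0.173. From an OE of 2 these were 21.8%, -13.7 points, -22.9 points, 0.309 Mb and 0.223, and 3.73% of bins had contact in at least 80% of cells. A lower threshold calls more bins by construction. The flank difference was -18.6 points over bins with a read and -12.7 points with flanks of 10 Mb. The correlation at 1 Mb was 0.258 in odd-numbered cells, 0.271 in even-numbered cells and 0.190 in cells thinned to 50978 reads; the cause was not tested.

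The difference between the arms kept its direction under all alternatives run, from 15.1 to 19.4 points, and the difference from the other bins of the series from 1.87 to 4.47 points. The settings without cell 9, chosen after seeing the data, gave 35.1% for the share, 17.4 points between the arms and 0.229 for the correlation at 1 Mb. No flank bin reached an expected number of 100, so that setting gave no value for the flanks. Depth limits calls in single bins of shallow cells and in the bins beside the gap. No paired analysis was possible because the cells form 1 group, so replicate numbers pair no samples across groups. The differences within cells use no such numbers.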
